A study of Homo sapiens with 9 samples.

Results

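Expressed antisense long non-coding RNA genes were examined in H1299 cells, a human non-small cell lung cancer line, after knockdown of the forkhead transcription factor FOXN3. A gene entered the set when its symbol ended in -AS and a number and its mean over the 9 samples was at least 0.5 FPKM (fragments per kilobase of exon, scaled to the mapped fragments of each library), so the members were selected on their mean FPKM. Of 34789 genes in the table, 1399 carried such a symbol, 375 reached 0.5 FPKM and 1024 did not. Because 1 symbol (DNAJC9-AS1) belonged to 2 Ensembl genes, the 375 members carried 374 symbols. Just inside the threshold stood SLC12A9-AS1, ITGB5-AS1 and LRP4-AS1, with means of 0.504, 0.505 and 0.506 FPKM. Just outside it stood MED4-AS1, ACVR2B-AS1 and FARSA-AS1, with means of 0.49966, 0.49953 and 0.496 FPKM. In 270 members every group mean reached 0.5 FPKM. The other 105 had at least 1 group mean below it, so their place in the set can rest on the group in which they were higher. The siControl mean was under 0.5 FPKM in 34 members, the siFOXN3-1 mean in 60 and the siFOXN3-2 mean in 45. The fold changes of such members are not independent of the selection.

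The study held 3 groups of 3 RNA-seq libraries of polyadenylated RNA. All cells received siRNA at 50 nM with Lipofectamine RNAiMAX. The siControl group was labelled wild type, and the siFOXN3-1 and siFOXN3-2 groups received 1 of 2 siRNAs against FOXN3. The treatment field of siFOXN3-2 replicates 2 and 3 names siFOXN4 and siFOXN5, while their titles say siFOXN3-2. For members named by rule, each call described below that was lost without both samples is named with its p-value. Calls of sense genes and of members added after their values were seen were not examined in that setting. That setting leaves 1 siFOXN3-2 library, which is then assumed to vary like the other groups. The labels do not say whether replicates are separate cultures, and p-values therefore reflect the spread of these libraries alone, possibly a technical one. FOXN3 itself stood at 4.85, 5.25 and 5.00 FPKM in siControl, at 1.28, 1.24 and 1.16 in siFOXN3-1, and at 0.858, 0.958 and 1.06 in siFOXN3-2. Its log2 fold change was -1.95 (adjusted p = 5.56e-07) and -2.28 (adjusted p = 2.61e-07), and both samples with the odd treatment field were low in FOXN3 like siFOXN3-2 replicate 1.

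Natural antisense RNAs are transcribed from the strand opposite another gene, often from a promoter that the pair shares or from within an intron of the sense gene. Some are known to act on their own locus, by competing for transcription, recruiting chromatin regulators or pairing with the sense RNA, and others act elsewhere in the cell, for example by binding microRNAs. Most are present at low levels and many remain in the nucleus. The libraries were made with a kit that does not mark strand. Reads from an antisense gene and its sense partner therefore cannot be told apart where their exons overlap, and unspliced RNA of a sense gene can also give reads in an antisense gene that lies in its intron.

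Of the marker genes for an epithelial lung cancer line, keratins and mesenchymal genes were present and epithelial adhesion genes were nearly absent. KRT8 (84.7 to 130 FPKM), KRT18 (163 to 239), VIM (443 to 572) and CDH2 (13.8 to 17.3) were present in every library, whereas EPCAM did not pass 0.28 FPKM and CDH1 did not pass 0.0806. The 3 immune markers (PTPRC, CD3E, LYZ) summed to 0.304 to 1.07 FPKM in siControl, 0.0297 to 0.0647 in siFOXN3-1 and 1.41 to 1.84 in siFOXN3-2. PTPRC and CD3E were at 0 in every siFOXN3-1 library. The 3 fibroblast markers (COL1A1, COL1A2, PDGFRB) summed to 0.874 to 1.17, 0.525 to 0.738 and 2.14 to 3.5 FPKM in the same order. PTPRC, LYZ, COL1A1 and COL1A2 were higher in every siFOXN3-2 library than in any other library, and their part in the siFOXN3-2 results below was not tested. The 3 endothelial markers (PECAM1, CDH5, VWF) summed to 0.196 to 0.412 FPKM over all libraries. Depth was 17.0 to 19.6 M mapped fragments per library.

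Promoters of 6 members that moved with both siRNAs show the DNA around the starts that RefSeq gives for these RNAs. Each runs from 250 bases before to 50 bases after the gene's start in RefSeq (GRCh38.p14), 5′ to 3′ on the gene's own strand. For ZNF407-AS1, TMPO-AS1 and THAP9-AS1 that start differs from the start of the GENCODE 29 gene given below. The ZNF407-AS1 stretch lies wholly inside its GENCODE gene. Capitals mark every match, on either strand, to the forkhead core TGTTTAC, to the forkhead-like (FHL) element GACGC, both of which forkhead proteins of the FOXN family are known to bind, and to the hypoxia element core ACGTG. C1QTNF7-AS1 (chr4:15427865-15428164, minus strand), HIF1A-AS3 (chr14:61751048-61751347, minus strand) and THAP9-AS1 (chr4:82900867-82901166, minus strand) were higher after knockdown. ZNF407-AS1 (chr18:74597786-74598085, minus strand), HERPUD2-AS1 (chr7:35694956-35695255, plus strand) and TMPO-AS1 (chr12:98516177-98516476, minus strand) were lower.
C1QTNF7-AS1: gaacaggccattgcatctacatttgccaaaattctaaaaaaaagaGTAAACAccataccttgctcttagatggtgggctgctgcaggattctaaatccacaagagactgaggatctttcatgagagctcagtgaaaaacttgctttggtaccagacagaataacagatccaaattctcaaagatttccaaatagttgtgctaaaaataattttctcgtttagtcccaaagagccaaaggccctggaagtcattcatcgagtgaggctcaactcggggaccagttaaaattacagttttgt
HIF1A-AS3: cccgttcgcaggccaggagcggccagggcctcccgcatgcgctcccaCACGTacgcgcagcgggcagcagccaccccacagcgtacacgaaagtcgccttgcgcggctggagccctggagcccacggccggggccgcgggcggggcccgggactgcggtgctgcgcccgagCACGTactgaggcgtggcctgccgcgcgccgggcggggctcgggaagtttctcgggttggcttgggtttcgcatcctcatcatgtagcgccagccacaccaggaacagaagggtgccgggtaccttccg
THAP9-AS1: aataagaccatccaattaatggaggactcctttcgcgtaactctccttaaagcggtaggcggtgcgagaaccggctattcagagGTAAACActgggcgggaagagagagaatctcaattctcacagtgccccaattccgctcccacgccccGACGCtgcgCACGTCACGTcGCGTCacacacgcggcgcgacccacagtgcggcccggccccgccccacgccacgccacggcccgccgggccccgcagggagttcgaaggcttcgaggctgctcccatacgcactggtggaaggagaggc
ZNF407-AS1: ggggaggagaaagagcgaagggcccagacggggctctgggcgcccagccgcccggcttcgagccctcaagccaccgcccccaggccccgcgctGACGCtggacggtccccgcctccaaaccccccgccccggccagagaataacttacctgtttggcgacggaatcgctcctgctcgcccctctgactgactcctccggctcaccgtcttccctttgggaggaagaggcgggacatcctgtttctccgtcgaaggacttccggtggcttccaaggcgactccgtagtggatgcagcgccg
HERPUD2-AS1: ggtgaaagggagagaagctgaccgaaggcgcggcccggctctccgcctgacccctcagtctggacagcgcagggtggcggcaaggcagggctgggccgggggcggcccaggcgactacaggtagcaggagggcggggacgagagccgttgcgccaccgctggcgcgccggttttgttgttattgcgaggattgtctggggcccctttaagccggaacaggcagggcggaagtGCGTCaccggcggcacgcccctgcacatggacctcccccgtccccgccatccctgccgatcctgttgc
TMPO-AS1: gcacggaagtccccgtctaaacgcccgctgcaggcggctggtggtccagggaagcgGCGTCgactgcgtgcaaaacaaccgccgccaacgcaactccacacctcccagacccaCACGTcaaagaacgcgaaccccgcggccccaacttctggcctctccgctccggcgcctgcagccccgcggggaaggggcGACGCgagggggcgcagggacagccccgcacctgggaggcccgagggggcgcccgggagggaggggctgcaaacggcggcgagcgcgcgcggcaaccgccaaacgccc

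The C1QTNF7-AS1 promoter held 1 forkhead core and no other match. The THAP9-AS1 promoter held 1 forkhead core, 2 FHL elements and 2 hypoxia element cores. HIF1A-AS3 held 2 hypoxia element cores, TMPO-AS1 held 2 FHL elements and 1 hypoxia element core, and ZNF407-AS1 and HERPUD2-AS1 held 1 FHL element each. RefSeq gave a promoter for 277 members. The forkhead core was present in 2.89% of these and in 3.41% of 27305 promoters of all genes. The FHL element was present in 47.7% of the members' promoters against 35.1% of all, and the hypoxia element core in 27.1% against 21.6%. The members' promoters were also richer in G and C, with a median of 64.0% against 58.3%, and both of those motifs contain CG. Among members that fell with siFOXN3-1, 73 of 136 promoters (53.7%) held an FHL element at a median GC content of 67.2%, and among those that rose 10 of 30 (33.3%) did at 60.0%. Among those not called, 49 of 111 (44.1%) did at 61.3%. With siFOXN3-2 the shares were 51.2% of those that fell, 36.7% of those that rose and 46.8% of those not called. The hypoxia element core was in 27.2% of members that fell with siFOXN3-1 and in 40% of those that rose. These differences were not tested. A match is a description of the letters and not a binding site.

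As annotated in GENCODE 29 (GRCh38), 308 members were of the antisense type, 27 were lincRNAs and 26 were processed transcripts. The remaining 14 were 5 bidirectional promoter RNAs, 5 transcribed pseudogenes, 3 genes listed as protein coding and 1 transcript of the class still to be tested by experiment. Members were short. Their median exon length was 1432 bases, against 4095 for the 15283 genes tested, and 28 had a single exon. Of the 375, 269 shared exon bases with a gene on the other strand, with a median of 16.2% of their exon length, and in 24 the share was 50% or more. A partner named by the symbol before -AS was found for 367 members. The exons of 244 overlapped those of the partner, 99 lay over the partner without shared exon bases, 21 were divergent from it, 2 were convergent and 1, FAM131B-AS2, was on the same strand.

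Levels were low in most members and very uneven. The median of the mean levels was 1.16 FPKM, 268 members stayed under 2 FPKM, 36 reached 5 and 9 reached 10. PRR11-AS1 was the most abundant, with 96.0, 102 and 97.4 FPKM in siControl, 132, 124 and 118 in siFOXN3-1, and 79.3, 100 and 97.4 in siFOXN3-2. It lies at chr17:59202677-59203829 on the minus strand, opposite PRR11, a cell-cycle gene, and has only 321 exon bases, 30.2% of them shared with the other strand. Its siFOXN3-1 libraries were above all others, while siControl and siFOXN3-2 overlapped. PRR11-AS1 rose with siFOXN3-1 (log2 fold change 0.34, SE 0.09, adjusted p = 0.00684), a call that ended under quantile normalization (adjusted p = 0.168), and with siFOXN3-2 its log2 fold change was -0.10 (adjusted p = 0.341). FGD5-AS1, a broadly expressed long non-coding RNA, followed with a siControl mean of 32.6 ± 0.884 FPKM (SD, n = 3). DLGAP1-AS2, opposite a gene for a postsynaptic scaffold protein, had 13.3, 12.6 and 14.0 FPKM in siControl, 28.8, 27.4 and 25.7 in siFOXN3-1 and 18.9, 20.9 and 19.8 in siFOXN3-2. Its 3 groups did not overlap. It rose with both siRNAs, by 1.03 (SE 0.07, adjusted p = 1.80e-06) and 0.57 (SE 0.07, adjusted p = 6.28e-05) on the log2 scale, and was lower with siFOXN3-2 than with siFOXN3-1 (-0.46, adjusted p = 0.00107).

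KLC1-AS1, inside the gene of a kinesin light chain, had 8.92, 10.7 and 10.8 FPKM in siControl, 20.8, 18.6 and 15.3 in siFOXN3-1, and 17.5, 13.6 and 18.3 in siFOXN3-2. Both knockdown groups were above siControl and overlapped each other, and it rose by 0.83 (adjusted p = 0.000647) and 0.68 (adjusted p = 0.00228), while KLC1 moved by 0.02 and -0.03. FAM131B-AS2 had 18.2, 18.1 and 18.6 FPKM in siControl, 16.9, 14.7 and 16.4 in siFOXN3-1, and 9.43, 12.6 and 8.45 in siFOXN3-2. Its siFOXN3-2 libraries were the lowest, and it fell there by 0.86 (SE 0.13, adjusted p = 0.000304), against a log2 fold change of -0.19 with siFOXN3-1 (adjusted p = 0.210). URB1-AS1, divergent from a gene of ribosome assembly, had 15.9, 13.4 and 15.9 FPKM in siControl, 8.12, 9.18 and 8.73 in siFOXN3-1, and 11.9, 13.2 and 12.1 in siFOXN3-2. The 3 groups did not overlap, with siControl and siFOXN3-2 close together. It fell by 0.79 with siFOXN3-1 (adjusted p = 3.33e-05). Its log2 fold change of -0.28 with siFOXN3-2 (adjusted p = 0.0161) was lost without siControl replicate 1 or 3 or siFOXN3-2 replicate 1 (adjusted p up to 0.0628), without both samples labelled siFOXN4 and siFOXN5 (0.0539) and under median-ratio scaling (0.204).

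**Figure D1:**
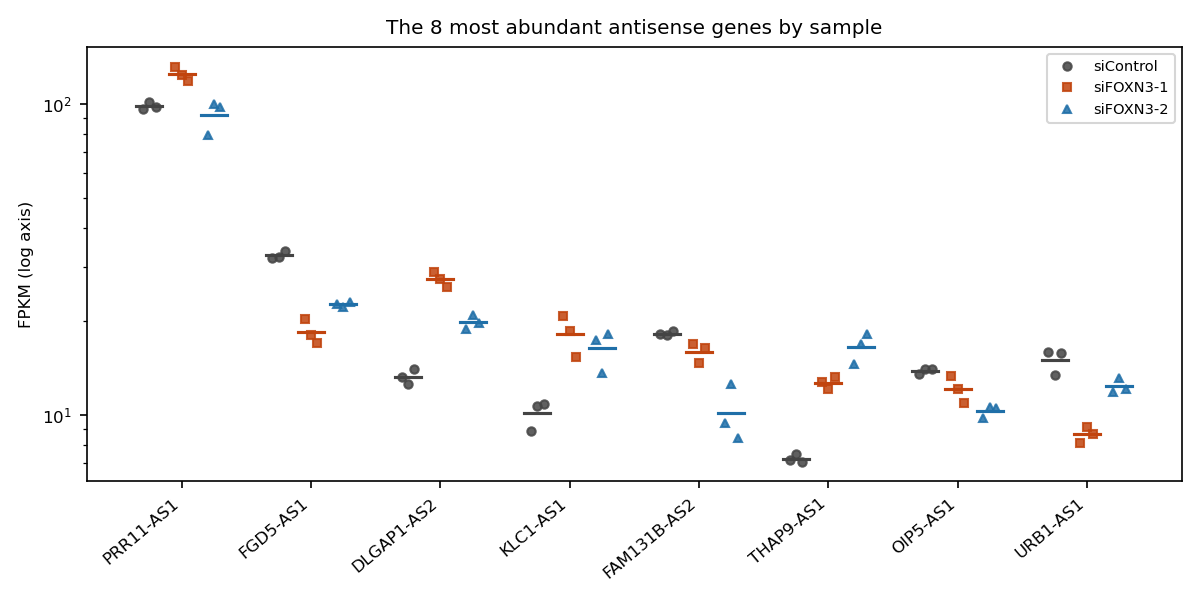
FPKM (log axis) of the 8 most abundant antisense genes in each of the 9 libraries, as points with a bar at each group mean of 3 libraries. PRR11-AS1 stands apart from the rest, DLGAP1-AS2 is higher in both FOXN3 siRNA groups, and FGD5-AS1 is lower in both.

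All FPKM of the members summed to 983 ± 12.7 in siControl, 846 ± 16.7 in siFOXN3-1 and 842 ± 6.10 in siFOXN3-2 (SD, n = 3). They made up 0.361%, 0.316% and 0.314% of all FPKM. The median member stood at 1.46 ± 0.0452, 1.02 ± 0.0436 and 1.08 ± 0.0573 FPKM. These are bulk samples, in which fewer cells of a type and less RNA per cell cannot be told apart.

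With siFOXN3-1, 55 members were higher and 172 were lower than with siControl at adjusted p under 0.05, and 148 did not pass the test. Among all 15283 genes tested, 17.6% were called higher and 42.9% lower, and the members' shares of 14.7% and 45.9% were close to these. In either direction 60.4% of all genes were called. Among tested genes under 5 FPKM, the range of most members, these shares were 11.4% and 44.9%. The median log2 fold change of members was -0.45, against -0.22 over all genes and -0.37 over genes under 5 FPKM. On this scale, log2(FPKM + 0.1), changes of low genes are understated. Scaling by median ratios moved the median of all genes to 0.00 and that of members to -0.23, and then 72 members were higher and 125 lower. Quantile normalization gave 78 higher and 108 lower. In 60 members every siFOXN3-1 library was above every siControl library and in 186 every one was below, 16.0% and 49.6% of members, against 20.5% and 47.8% of all genes. Leaving out 1 library at a time, 164 of the 227 calls held throughout and 63 were lost at least once.

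**Figure D2:**
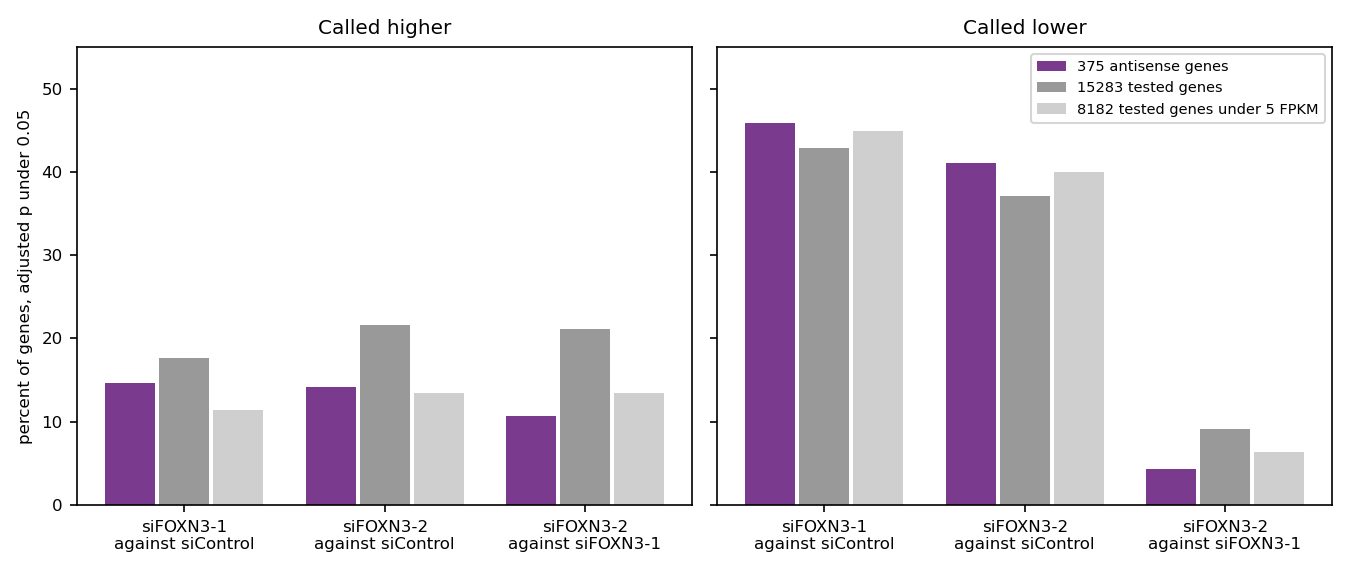
Percent of genes called higher (left) and lower (right) at adjusted p under 0.05 in each comparison, for the 375 antisense genes, all 15283 tested genes and the 8182 tested genes under 5 FPKM. The antisense genes fell about as often as all genes after either siRNA, at 45.9% and 41.1%.

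C1QTNF7-AS1 and LIF-AS2 showed the largest rises with siFOXN3-1 among members whose groups did not overlap. C1QTNF7-AS1 (ENSG00000249252, chr4:15004942-15427914, minus strand), opposite the gene of a secreted C1q/TNF-related protein, had 0.236, 0.172 and 0 FPKM in siControl, 1.79, 1.63 and 1.51 in siFOXN3-1, and 1.88, 1.67 and 1.34 in siFOXN3-2. It was close to absent in siControl and similar in both knockdown groups, which did not overlap siControl. It rose by 3.06 on the log2 scale in the siFOXN3-1 group (SE 0.40, adjusted p = 0.000128). In the siFOXN3-2 group it rose by 3.04 (SE 0.40, adjusted p = 0.000147). In recovered reads the groups held 7, 82 and 79, a ratio of 12.3 (95% counting interval 5.70 to 31.5) for siFOXN3-1. The intervals cover counting error only.

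LIF-AS2 (chr22:30246205-30246998, plus strand, 1 exon) lies opposite LIF, which encodes leukemia inhibitory factor, a cytokine of the interleukin-6 family. It stood at 3.17, 1.57 and 1.99 FPKM in siControl, 12.0, 16.6 and 18.1 in siFOXN3-1, and 7.18, 8.46 and 6.62 in siFOXN3-2. The 3 groups did not overlap. LIF-AS2 rose by 2.77 (SE 0.23, adjusted p = 9.02e-06) and 1.73 (SE 0.23, adjusted p = 0.000183) on the log2 scale, and was lower with siFOXN3-2 than with siFOXN3-1 (-1.04, adjusted p = 0.00908), a call lost without both siFOXN3-2 samples of odd treatment label (adjusted p = 0.0797). LIF itself went from 8.28, 10.9 and 10.6 FPKM to 65.7, 76.6 and 78.7 with siFOXN3-1 and to 34.1, 34.4 and 36.2 with siFOXN3-2, in the same order of groups. LIF-AS2 shared 22.0% of its exon bases with the other strand.

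The next 6 rises with siFOXN3-1 were in members with a siControl mean under 0.2 FPKM, apart from UST-AS2 and RGMB-AS1. Those under 0.2 FPKM in siControl entered the set only through the knockdown groups. GCLC-AS1, opposite the catalytic subunit of the enzyme that starts glutathione synthesis, had 0.391, 0 and 0.187 FPKM in siControl, 1.24, 1.00 and 1.15 in siFOXN3-1, and 1.18, 1.88 and 1.21 in siFOXN3-2. It rose with both siRNAs (log2 fold change 2.35, adjusted p = 0.00250, and 2.63, adjusted p = 0.00137), while GCLC stayed between 3.90 and 4.31 FPKM and was not called. ITGA6-AS1, opposite the gene of a laminin-binding integrin subunit, had 0.0994, 0.0484 and 0.190 FPKM in siControl, 0.923, 1.17 and 0.689 in siFOXN3-1, and 0.655, 0.302 and 0.514 in siFOXN3-2. It rose by 2.30 (adjusted p = 0.000719) and 1.48 (adjusted p = 0.00933, and 0.0523 in a fit of the compared groups alone). RGMB-AS1, opposite a co-receptor for bone morphogenetic proteins, had far more reads. It went from 1.19, 1.91 and 2.20 FPKM to 8.17, 8.10 and 7.41 with siFOXN3-1 and to 7.12, 5.64 and 7.65 with siFOXN3-2, with no overlap with siControl. RGMB-AS1 rose by 2.14 (SE 0.20, adjusted p = 1.46e-05) and 1.92 (SE 0.20, adjusted p = 3.14e-05), and RGMB rose by 0.92 and 0.73. BMAL2-AS1, opposite a circadian clock transcription factor, went from 0.172 ± 0.0709 FPKM to 1.04 ± 0.172 and 0.949 ± 0.303 (SD, n = 3), with log2 fold changes of 2.08 (adjusted p = 0.000214) and 1.94 (adjusted p = 0.000371).

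UST-AS2 met the rule for naming but rested on few reads. It had 2 reads over the siControl libraries, 9 in siFOXN3-1 and 10 in siFOXN3-2, a ratio of 4.71 (95% counting interval 0.976 to 44.8) with siFOXN3-1 and of 5.37 (1.14 to 50.4) with siFOXN3-2. Its log2 fold changes were 2.67 (adjusted p = 0.0213) and 2.61 (adjusted p = 0.0247). The first call ended without siControl replicate 1 or 2 or siFOXN3-1 replicate 1 or 2 (adjusted p up to 0.0744), and the second without siControl replicate 1 or 2 or siFOXN3-2 replicate 1 or 3 (up to 0.0894) or without both samples labelled siFOXN4 and siFOXN5 (0.0895). Neither passed with no filter on low values (0.0544 and 0.0616). PNN-AS1, opposite pinin, a nuclear protein of splicing complexes and desmosomes, had 2 reads in siControl, 18 in siFOXN3-1 and 33 in siFOXN3-2. Those counts give ratios of 9.43 (2.26 to 83.8) and 17.7 (4.53 to 152). PNN-AS1 rose in both comparisons (log2 fold change 2.24, adjusted p = 0.00571, and 3.06, adjusted p = 0.00104), and PNN rose by 0.30 and 0.50.

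**Figure D3:**
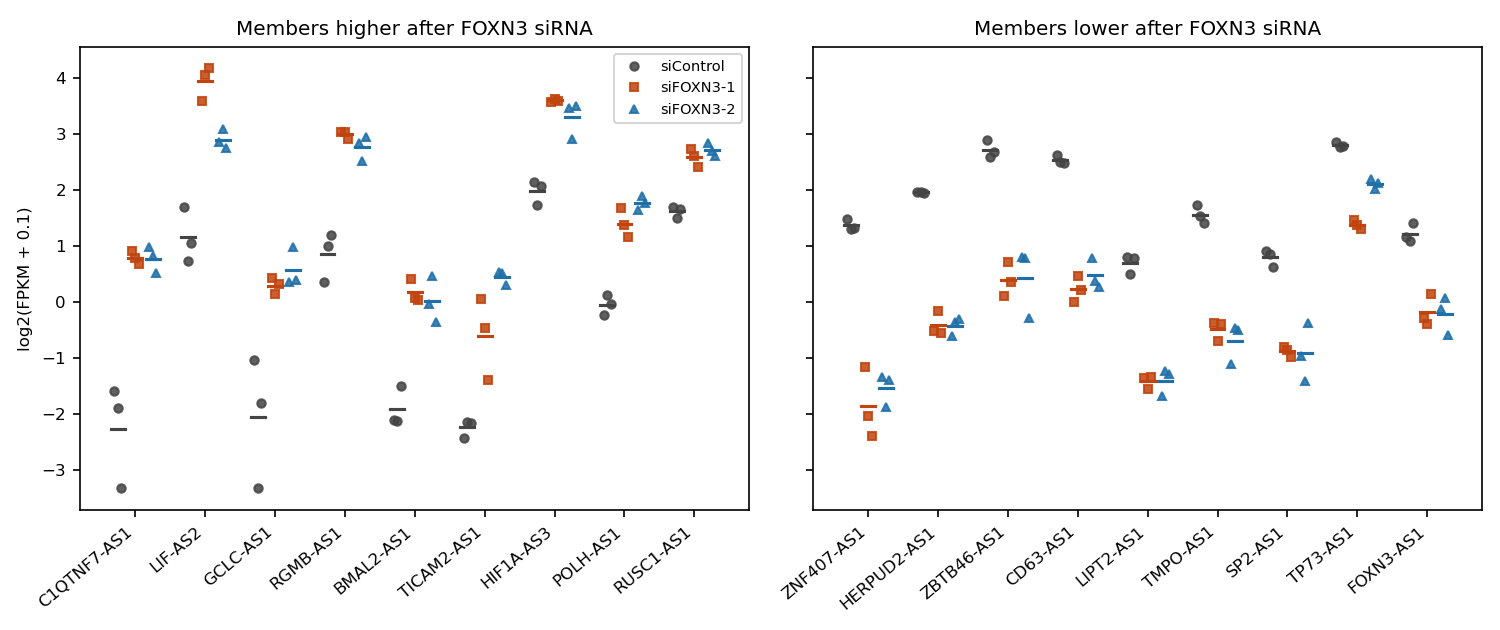
log2(FPKM + 0.1) in each of the 9 libraries for 9 antisense genes that were higher after FOXN3 siRNA (left) and 9 that were lower (right), with a bar at each group mean of 3 libraries. The 18 genes were chosen for their direction after both siRNAs, so the knockdown groups lie on the same side of siControl by that choice.

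ZNF407-AS1 had the largest fall with siFOXN3-1. This 3-exon lincRNA (chr18:74591774-74598508, minus strand) starts beside ZNF407, which encodes a zinc finger protein. It had 2.72, 2.37 and 2.42 FPKM in siControl, 0.350, 0.147 and 0.0916 in siFOXN3-1, and 0.298, 0.174 and 0.281 in siFOXN3-2. Every knockdown library was below every siControl library, and the knockdown groups overlapped each other. ZNF407-AS1 fell by 3.23 (SE 0.34, adjusted p = 3.41e-05) and by 2.91 (SE 0.34, adjusted p = 7.15e-05) on the log2 scale, from 537 reads to 41 and 50. ZNF407 fell as well, by 0.67 (adjusted p = 0.0206) and 0.85 (adjusted p = 0.00677).

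HERPUD2-AS1 and CD63-AS1 fell from moderate levels with both siRNAs, while their sense genes were called, and lower, only with siFOXN3-2. HERPUD2-AS1, which starts near the start of an endoplasmic reticulum protein gene, had 3.81, 3.83 and 3.75 FPKM in siControl, 0.598, 0.797 and 0.585 in siFOXN3-1, and 0.560, 0.684 and 0.711 in siFOXN3-2. The siControl values lay close together and far above both other groups. Its log2 fold changes were -2.37 (SE 0.15, adjusted p = 1.62e-06) and -2.38 (SE 0.15, adjusted p = 1.74e-06), and those of HERPUD2 were -0.12 (adjusted p = 0.212) and -0.62 (adjusted p = 0.000152). CD63-AS1 lies opposite CD63, a tetraspanin of late endosomes and exosomes. It had 6.12, 5.59 and 5.49 FPKM in siControl, 0.906, 1.29 and 1.07 in siFOXN3-1, and 1.63, 1.20 and 1.11 in siFOXN3-2, with no overlap of either group with siControl. CD63-AS1 fell by 2.31 (adjusted p = 2.73e-06) and by 2.06 (adjusted p = 5.77e-06), while CD63, at 117 to 178 FPKM, moved by 0.05 (adjusted p = 0.652) and -0.30 (adjusted p = 0.0139).

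Other large falls with siFOXN3-1 were in ZBTB46-AS1, LIPT2-AS1, FGF14-AS2, FTCD-AS1 and PANK2-AS1. ZBTB46-AS1, in the gene of a transcription factor of dendritic cells, went from 6.54 ± 0.709 FPKM to 1.23 ± 0.285 and 1.34 ± 0.528 (SD, n = 3), and fell by 2.33 (adjusted p = 7.25e-05) and 2.28 (adjusted p = 9.11e-05). LIPT2-AS1, opposite a mitochondrial enzyme of lipoate synthesis, went from 1.54 ± 0.191 FPKM to 0.278 ± 0.0311 and 0.283 ± 0.0618, and fell by 2.11 and 2.1 (adjusted p = 6.79e-05 and 7.59e-05). With both knockdown means under 0.5 FPKM, LIPT2-AS1 entered the set only through siControl. FGF14-AS2, in the gene of an intracellular modulator of sodium channels, went from 1.99 ± 0.197 FPKM to 0.435 ± 0.239 and 0.751 ± 0.251. All 3 were separated from siControl in both knockdown groups. The fall of FGF14-AS2 with siFOXN3-2 (1.34, adjusted p = 0.0126) was lost without both samples labelled siFOXN4 and siFOXN5 (adjusted p = 0.157) and under quantile normalization (0.0501). FTCD-AS1, opposite an enzyme of histidine breakdown, fell by 2.07 with siFOXN3-1 (adjusted p = 0.00317) and by 1.52 with siFOXN3-2 (adjusted p = 0.0166). The second of these calls ended without siControl replicate 3 (adjusted p = 0.0516) or siFOXN3-2 replicate 3 (adjusted p = 0.0561), without both samples labelled siFOXN4 and siFOXN5 (0.104) and under quantile normalization (0.0885).

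With siFOXN3-2, 53 members were higher and 154 lower than with siControl, and 168 did not pass. Over all genes tested 21.6% were higher and 37.1% lower, against 14.1% and 41.1% of members, and 58.7% were called in either direction. Among genes under 5 FPKM the shares were 13.5% and 40%. The median log2 fold change was -0.39 in members, -0.14 over all genes and -0.29 over genes under 5 FPKM. Median-ratio scaling moved these to -0.26 in members and -0.01 over all genes, with 65 members higher and 123 lower, and quantile normalization gave 76 and 93. Groups did not overlap in 63 members that were higher and 174 that were lower, with 24.1% and 41.4% of all genes doing so. Leaving out 1 library at a time, 145 of 207 calls held throughout and 62 were lost at least once. Without both samples whose treatment field names siFOXN4 and siFOXN5, 38 members were higher and 110 lower. Both FOXN3 siRNA groups were compared with the same siControl libraries, so their values are given side by side and were not correlated.

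TICAM2-AS1 and OPA1-AS1 were among the largest rises with siFOXN3-2. TICAM2-AS1, opposite an adaptor of Toll-like receptor 4, had 0.0879, 0.128 and 0.126 FPKM in siControl, 0.945, 0.631 and 0.281 in siFOXN3-1, and 1.35, 1.33 and 1.14 in siFOXN3-2. The 3 groups did not overlap, and it rose by 1.64 (adjusted p = 0.00363) with siFOXN3-1 and by 2.68 (adjusted p = 0.000200) with siFOXN3-2. The difference between the siRNAs did not pass the test (1.05, adjusted p = 0.0573). OPA1-AS1, opposite a gene of mitochondrial inner membrane fusion, went from 0, 0.314 and 0.206 FPKM to 1.06, 0.981 and 2.00 with siFOXN3-2, above every siControl library. It rose by 2.57 (adjusted p = 0.00287), while OPA1 moved by 0.08 (adjusted p = 0.346). The call of OPA1-AS1 was lost without both samples labelled siFOXN4 and siFOXN5 (adjusted p = 0.0653). PTPRC, LYZ, COL1A1 and COL1A2 were also higher in siFOXN3-2, as given above, and their part in these rises was not tested.

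POLH-AS1 and HIF1A-AS3 rose with both siRNAs from levels with more reads. POLH-AS1 lies in the gene of DNA polymerase eta, which copies past ultraviolet damage, without shared exon bases. It had 0.757, 1.00 and 0.877 FPKM in siControl, 3.12, 2.49 and 2.13 in siFOXN3-1, and 3.03, 3.61 and 3.30 in siFOXN3-2. Both groups were above siControl, and it rose by 1.45 (adjusted p = 3.26e-05) and 1.81 (adjusted p = 9.32e-06). POLH moved by -0.09 (adjusted p = 0.422) with siFOXN3-1 and fell by 0.53 with siFOXN3-2 (adjusted p = 0.000681). HIF1A-AS3 (ENSG00000258667, chr14:61715558-61751097, minus strand) overlaps the gene of the hypoxia-inducible factor 1 alpha subunit, also without shared exon bases. It had 4.32, 3.22 and 4.12 FPKM in siControl, 11.9, 12.3 and 12.0 in siFOXN3-1, and 11.0, 7.42 and 11.3 in siFOXN3-2. The siFOXN3-1 values lay close together, and siFOXN3-2 replicate 2 was the lowest of the knockdown libraries but above siControl. HIF1A-AS3 rose by 1.62 (SE 0.16, adjusted p = 2.29e-05) and 1.32 (SE 0.16, adjusted p = 9.25e-05). HIF1A stayed between 25.7 and 35.3 FPKM, with log2 fold changes of -0.07 (adjusted p = 0.377) and 0.24 (adjusted p = 0.00744).

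TMPO-AS1 (chr12:98512973-98516422, minus strand) was among the largest falls with siFOXN3-2. It lies opposite TMPO, which encodes lamina-associated polypeptides of the nuclear envelope. Its levels were 3.22, 2.82 and 2.57 FPKM in siControl, 0.670, 0.523 and 0.663 in siFOXN3-1, and 0.368, 0.630 and 0.610 in siFOXN3-2. It fell by 2.05 (SE 0.20, adjusted p = 2.43e-05) and by 2.25 (SE 0.20, adjusted p = 1.49e-05), with both groups far below siControl. TMPO fell by 0.50 with siFOXN3-1 (adjusted p = 0.000299) and moved by 0.14 with siFOXN3-2 (adjusted p = 0.119). SEMA3B-AS1 and NARF-AS2 also fell with siFOXN3-2, by 2.52 (adjusted p = 0.00675) and 2.25 (adjusted p = 0.00493). They lie at genes of a secreted semaphorin and a prelamin A binding protein. The fall of SEMA3B-AS1 with siFOXN3-1 was lost without siControl replicate 2 (adjusted p = 0.0806). For NARF-AS2 that fall was lost without any 1 of the siControl libraries, siFOXN3-1 replicate 1, or siFOXN3-2 replicate 1 or 3 (up to 0.136), and under both other scalings (up to 0.143). Without both samples labelled siFOXN4 and siFOXN5, NARF-AS2 was not called with either siRNA (adjusted p = 0.0561 with siFOXN3-1 and 0.0753 with siFOXN3-2). SEMA3B-AS1 rested on 27, 4 and 3 reads over the 3 groups, with ratios of 0.155 (95% counting interval 0.0395 to 0.445) and 0.119 (0.0232 to 0.388).

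Between the siRNAs, 40 members were higher and 16 lower with siFOXN3-2 than with siFOXN3-1, and 319 did not pass the test. Over all genes 21.1% were higher and 9.07% lower, 30.2% in all, against 10.7% and 4.27% of members. Over genes under 5 FPKM the shares were 13.5% and 6.37%. Without both samples labelled siFOXN4 and siFOXN5, 21 members were higher. Median-ratio scaling gave 28 higher and 21 lower, and quantile normalization 31 and 23. The largest difference was in ZNF32-AS1, with 1.36, 1.44 and 0.824 FPKM in siControl, 0.362, 0.253 and 0.263 in siFOXN3-1, and 2.30, 0.999 and 1.66 in siFOXN3-2. Only siFOXN3-1 was separate from the other groups, and ZNF32-AS1 was higher with siFOXN3-2 by 2.1 (SE 0.31, adjusted p = 0.00122). It shared 54.4% of its exon bases with the other strand, and ZNF32, a zinc finger gene, differed by 0.27 (adjusted p = 0.0903).

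PANK2-AS1 and SELENOO-AS1 were also lowest with siFOXN3-1, but highest in siControl. PANK2-AS1, opposite a mitochondrial pantothenate kinase of coenzyme A synthesis, had 1.94, 1.77 and 1.74 FPKM in siControl, 0.237, 0.124 and 0.259 in siFOXN3-1, and 1.20, 0.492 and 1.13 in siFOXN3-2. The 3 groups did not overlap. It fell by 2.67 with siFOXN3-1 (adjusted p = 7.86e-05) and was higher with siFOXN3-2 than with siFOXN3-1 by 1.71 (adjusted p = 0.00400). Its fall of 0.96 with siFOXN3-2 (adjusted p = 0.0263) was lost without any 1 siControl library or without siFOXN3-2 replicate 2 (adjusted p up to 0.0743). It was also lost with no filter on low values (0.0573), under quantile normalization (0.155), and without both samples labelled siFOXN4 and siFOXN5, where it came to -0.56 (0.214). SELENOO-AS1, opposite a selenoprotein gene of mitochondria, had 1.22 ± 0.189 FPKM in siControl, 0.341 ± 0.0771 in siFOXN3-1 and 1.05 ± 0.215 in siFOXN3-2, a difference of 1.38 between the siRNAs (adjusted p = 0.00179). FUT8-AS1, opposite the core fucosyltransferase gene, had the largest difference the other way. It stood at 0.493, 0.788 and 0.907 FPKM in siControl, 0.757, 1.15 and 0.901 in siFOXN3-1, and 0.271, 0.178 and 0.400 in siFOXN3-2. Only siFOXN3-2 was separate, with a log2 difference of -1.46 (adjusted p = 0.00717), and FUT8 was lower as well (-0.62, adjusted p = 0.00291). EP300-AS1, HSD11B1-AS1 and HSPA2-AS1 also met the rule, with log2 differences of 1.37 (adjusted p = 0.0197), -0.93 (adjusted p = 0.0191) and -1.17 (adjusted p = 0.0404). The calls of EP300-AS1 and HSD11B1-AS1 were lost without replicate 1 or 2 of either siRNA group (adjusted p up to 0.0665 and 0.0689). That of HSPA2-AS1 was lost without siControl replicate 3 or replicate 1 or 3 of either siRNA group (up to 0.120). Without both samples labelled siFOXN4 and siFOXN5 none of the 3 passed (adjusted p = 0.0568, 0.0893 and 0.174).

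FOXN3-AS1 is the member at the targeted gene itself. It lies at chr14:89417354-89419793 on the plus strand (ENSG00000258920), inside FOXN3, with 2 exons of 1077 bases and no exon base shared with FOXN3. It stood at 2.14, 2.03 and 2.56 FPKM in siControl, 0.729, 0.662 and 1.01 in siFOXN3-1, and 0.819, 0.956 and 0.565 in siFOXN3-2. Every knockdown library was below every siControl library, and the knockdown groups overlapped. FOXN3-AS1 fell by 1.39 (SE 0.21, adjusted p = 0.000347) and by 1.43 (SE 0.21, adjusted p = 0.000321), and the difference between the siRNAs was -0.04 (SE 0.21, adjusted p = 0.911). FOXN3 fell by 1.95 and 2.28 in the same libraries. Reads from FOXN3 introns could not be told apart from FOXN3-AS1 reads.

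Sense partners were tested for 322 members. With siFOXN3-1, 83 pairs fell together and 14 rose together, while 13 antisense genes rose as the sense gene fell and 20 fell as the sense gene rose. With siFOXN3-2 the counts were 68, 9, 12 and 22. In all, 147 of the 322 members fell and 50 rose with siFOXN3-1, and in 139 pairs the sense gene fell and in 66 it rose. With siFOXN3-2 these totals were 131 and 48 for members, and 138 and 63 for sense genes. Whether pairs moved together more often than these totals give by themselves was not tested. Across these pairs the log2 fold changes of antisense and sense gene had Pearson's r of 0.31 and Spearman's rho of 0.30 with siFOXN3-1, and 0.23 and 0.21 with siFOXN3-2. These describe pairs of genes that share libraries, scaling and partly exons, and are not independent. In the 216 pairs with shared exon bases r was 0.35 and 0.25, in the 84 overlapping pairs without them 0.20 and 0.15, and in the 22 that did not overlap 0.31 and 0.34. Over all 322 pairs, 45.7% of members fell and 15.5% rose with siFOXN3-1. Of 27 members whose sense gene fell by at least 1 on the log2 scale with siFOXN3-1, 19 fell and 8 were not called. Of the same 27, 1 rose and 16 fell under median-ratio scaling, and 2 rose and 13 fell under quantile normalization. Of 11 whose sense gene rose by at least 1, 4 rose, 3 fell and 4 were not called. This became 4 rising and 2 falling under median-ratio scaling, and 4 rising and 1 falling under quantile normalization. In 31 members a called change of at least 1 with siFOXN3-1 came with a sense gene that was not called and within 0.2 of 0. Of these, 10 were higher and 21 lower, and 10 and 17 under either other scaling. Among the 23 members without overlap with their partner, 1 rose and 16 fell with siFOXN3-1, and 1 rose and 13 fell with siFOXN3-2. The shares that fell were 69.6% and 56.5%, beside 42.9% and 37.1% of all tested genes, 46.7% and 42.6% of the members with shared exon bases and 37.4% and 31.3% of those that overlap without them. The difference between these classes was not tested.

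**Figure D4:**
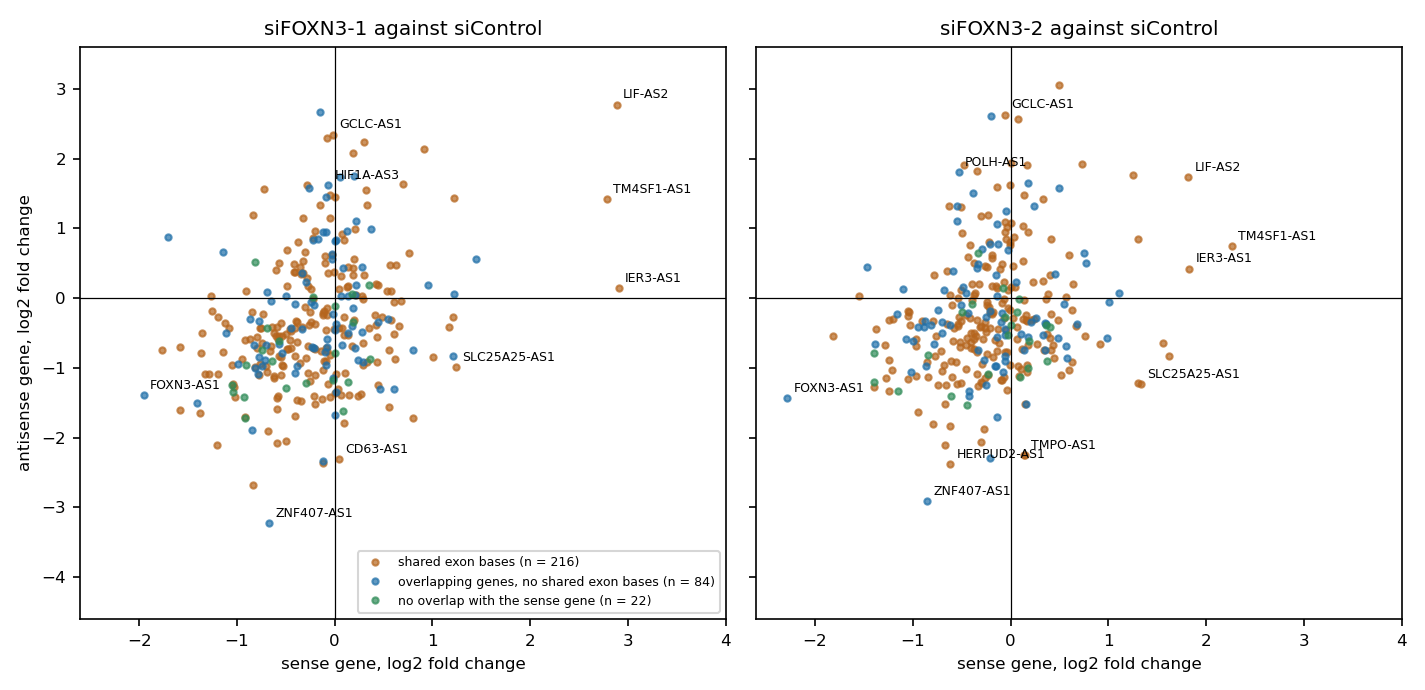
log2 fold change of each antisense gene (vertical axis) against that of its sense gene (horizontal axis) for 322 pairs, with siFOXN3-1 (left) and siFOXN3-2 (right) against siControl, coloured by how the genes overlap. LIF-AS2 moves with LIF, while IER3-AS1 stays near 0 beside the large rise of IER3.

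Pairs at strongly induced sense genes differed from each other. TM4SF1, a tetraspanin-like surface protein gene, went from 113, 116 and 123 FPKM to 806, 780 and 848 with siFOXN3-1. TM4SF1-AS1 rose with it, from 1.61, 0.615 and 1.59 FPKM to 2.70, 3.59 and 3.74 (log2 fold change 1.42, adjusted p = 0.00648), and with siFOXN3-2 it was at 1.33, 2.33 and 2.73 (0.75, adjusted p = 0.0963). IER3, an immediate early response gene, went from 82.0, 80.9 and 75.9 FPKM to 603, 568 and 621, a log2 fold change of 2.91. IER3-AS1, although 68.1% of its exon bases are shared with the other strand, had 0.609, 0.296 and 0.679 FPKM in siControl and 0.397, 0.833 and 0.542 in siFOXN3-1 (0.15, SE 0.39, adjusted p = 0.763), with 3 to 9 reads per library. PDK1-AS1 rose with PDK1, a kinase that restrains pyruvate dehydrogenase, by 1.44 and 0.85 against 1.22 and 1.3.

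Among 322 pairs with a tested sense gene, the antisense gene rose and the sense gene fell in 13 with siFOXN3-1 and 12 with siFOXN3-2, and the reverse held in 20 and 22. SLC25A25-AS1 and MAPKAPK5-AS1 were in such pairs with both siRNAs. SLC25A25-AS1, opposite a mitochondrial ATP-magnesium/phosphate carrier gene, fell from 1.42, 1.48 and 1.25 FPKM to 0.712, 0.644 and 0.590 with siFOXN3-1 and to 0.607, 0.424 and 0.571 with siFOXN3-2. SLC25A25 went from 3.62, 2.99 and 3.69 FPKM to 8.10, 8.06 and 8.54 and to 9.86, 8.83 and 7.71. The antisense gene fell by 0.99 (adjusted p = 0.00126) and 1.23 (adjusted p = 0.000348), and the sense gene rose by 1.24 and 1.33, with no overlap of siControl and either group in either gene. MAPKAPK5-AS1, opposite a stress-activated kinase gene, rose from 6.96, 7.19 and 6.27 FPKM to 8.29, 8.60 and 9.60 and to 11.8, 12.6 and 10.6. Its log2 fold changes were 0.37 (adjusted p = 0.00441) and 0.77 (adjusted p = 5.67e-05), and MAPKAPK5 fell by 0.42 in both comparisons. THAP9-AS1 (chr4:82893009-82900960, minus strand), which starts close to the start of a gene related to DNA transposases, rose from 7.16, 7.47 and 7.09 FPKM to 12.7, 12.2 and 13.2 and to 14.6, 16.9 and 18.2. It rose by 0.80 (adjusted p = 2.67e-05) and 1.18 (adjusted p = 3.14e-06), and THAP9, at 0.975 to 1.66 FPKM, was not called.

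**Figure D5:**
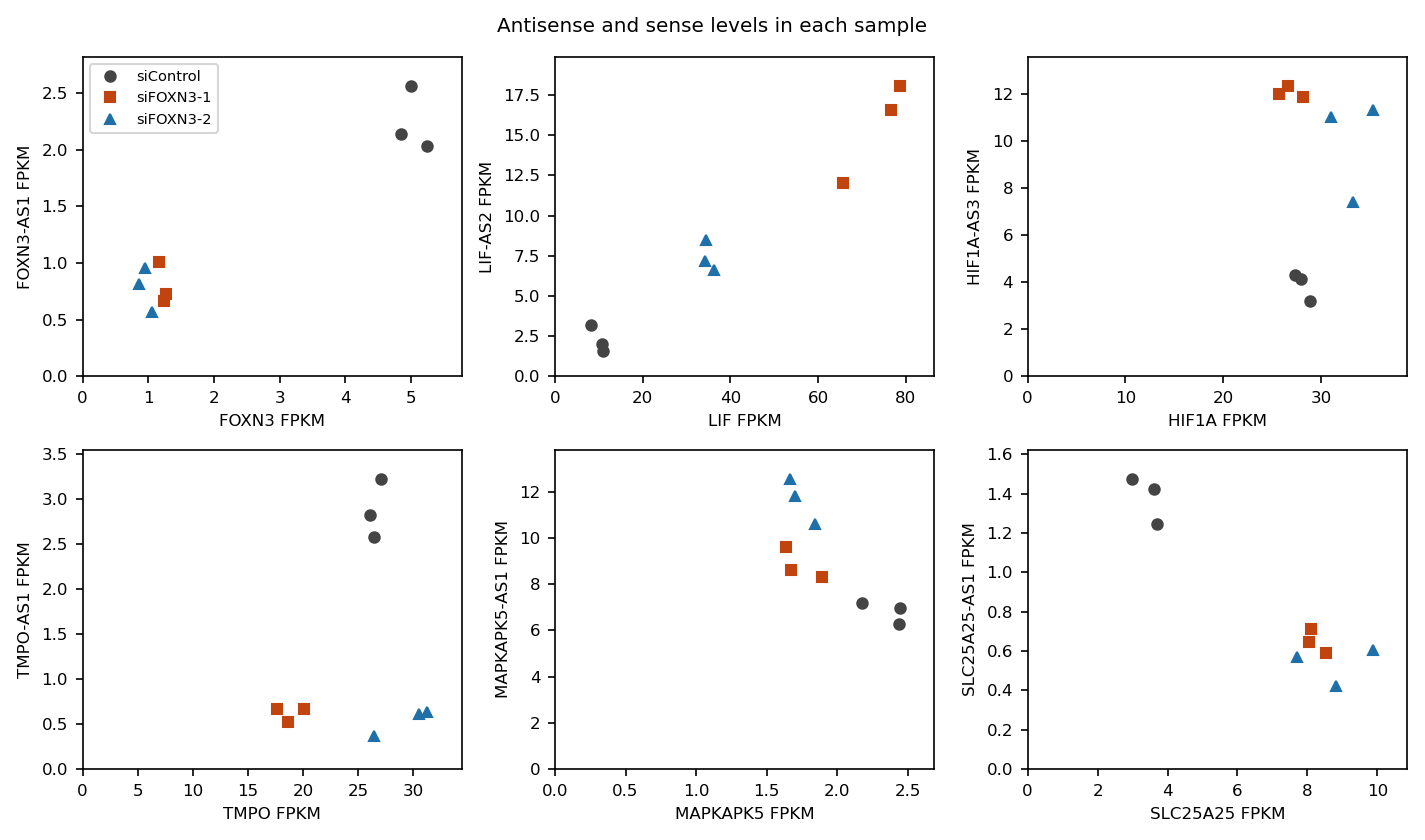
FPKM of 6 antisense genes (vertical axes) against FPKM of their sense genes (horizontal axes) in each of the 9 libraries, marked by group. LIF-AS2 and FOXN3-AS1 follow their sense genes, SLC25A25-AS1 and MAPKAPK5-AS1 run against theirs, and HIF1A-AS3 changes at nearly constant HIF1A.

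Antisense RNAs that are often studied in cancer were listed as 34 genes, 22 of which were members. With siFOXN3-1, 4 of the 22 rose and 14 fell (median log2 fold change -0.60, against -0.45 over all members), and with siFOXN3-2, 4 rose and 12 fell (-0.49 against -0.39). Beside these counts, 17.6% of all tested genes rose and 42.9% fell with siFOXN3-1, and 21.6% rose and 37.1% fell with siFOXN3-2. FGD5-AS1 had 32.1, 32.2 and 33.6 FPKM in siControl, 20.3, 18.1 and 17.0 in siFOXN3-1, and 22.7, 22.3 and 23.1 in siFOXN3-2. The groups did not overlap, and it fell by 0.82 (adjusted p = 7.07e-06) and 0.52 (adjusted p = 0.000126). TP73-AS1, opposite a transcription factor gene, had 7.19, 6.71 and 6.83 FPKM in siControl, 2.67, 2.50 and 2.38 in siFOXN3-1, and 4.50, 3.94 and 4.29 in siFOXN3-2. Its groups did not overlap either. TP73-AS1 fell by 1.42 (SE 0.08, adjusted p = 6.37e-07) and 0.69 (SE 0.08, adjusted p = 4.79e-05), and the siRNAs differed by 0.73 (adjusted p = 0.000214). MCM3AP-AS1 went from 1.48 ± 0.0565 FPKM to 0.627 ± 0.0521 and 0.573 ± 0.0455 (SD, n = 3), a fall of 1.12 and 1.23 (adjusted p = 0.000207 and 0.000125). RUSC1-AS1 rose from 3.0 ± 0.217 FPKM to 5.95 ± 0.669 and 6.51 ± 0.559, by 0.96 and 1.09 (adjusted p = 3.41e-05 and 1.69e-05).

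OIP5-AS1, the human counterpart of cyrano and known to bind the microRNA miR-7, depended on the scaling with siFOXN3-1. It had 13.6, 14.1 and 14.0 FPKM in siControl, 13.3, 12.1 and 10.9 in siFOXN3-1, and 9.79, 10.6 and 10.5 in siFOXN3-2. The groups did not overlap, though siControl and siFOXN3-1 came close, and with siFOXN3-2 OIP5-AS1 fell by 0.43 (adjusted p = 0.000928). With siFOXN3-1 its log2 fold change of -0.20 (adjusted p = 0.0421) became 0.034 under median-ratio scaling (adjusted p = 0.714). It was also lost without any 1 siControl library, without siFOXN3-1 replicate 2 or 3, or without siFOXN3-2 replicate 3 (adjusted p up to 0.147), and without both samples labelled siFOXN4 and siFOXN5 (0.0533). ZEB1-AS1, beside the gene of a transcriptional repressor that drives epithelial-mesenchymal transition, was at 1.99 ± 0.0616, 1.94 ± 0.109 and 2.31 ± 0.0762 FPKM, with log2 fold changes of -0.04 (adjusted p = 0.726) and 0.20 (adjusted p = 0.0621). Quantile normalization turned the first to 0.32 (adjusted p = 0.00831).

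By the kind of gene they lie at, groups chosen after the values were seen are described only by their counts. Of 22 members at zinc finger genes, 3 rose and 13 fell with siFOXN3-1, and 3 rose and 12 fell with siFOXN3-2. The same counts were 4 and 9, and 3 and 9, under median-ratio scaling. ZNF667-AS1 rose in this group, from 5.07 ± 0.231 FPKM to 6.75 ± 0.627 and 7.01 ± 0.161 (SD, n = 3), and its log2 fold changes were 0.40 (adjusted p = 0.00136) and 0.46 (adjusted p = 0.000665). Of 6 members in the HOX clusters, which hold genes of body patterning, none rose, while 3 fell with siFOXN3-1 (1 under median-ratio scaling) and 4 with siFOXN3-2 (3). Of 12 at genes of DNA replication, repair and mitosis, 4 rose and 7 fell with siFOXN3-1, and 3 rose and 6 fell with siFOXN3-2. POLH-AS1 rose and TMPO-AS1 and MCM3AP-AS1 fell in that group, with the values given above. Of 9 at solute carrier genes, none rose and 5 fell with siFOXN3-1, and 1 rose and 5 fell with siFOXN3-2, of which 3 fell in each under median-ratio scaling. Of 17 at mitochondrial and metabolic genes, 4 rose and 6 fell with siFOXN3-1, and 5 rose and 7 fell with siFOXN3-2, where 5 fell under median-ratio scaling and 3 under quantile normalization. Of 4 at forkhead genes none rose, while 3 fell with siFOXN3-1 (2 under either other scaling) and 1 with siFOXN3-2. Of 3 at TM4SF genes, 2 rose and 1 fell with siFOXN3-1, and 1 rose and 1 fell with siFOXN3-2. Under quantile normalization none of these fell with siFOXN3-1 and 2 rose with siFOXN3-2. All these counts of falls stand beside the 42.9% and 37.1% of all tested genes that fell, and the counts of rises beside the 17.6% and 21.6% that rose.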

How the data were processed

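RNA-seq was measured in 9 libraries of H1299 cells. FPKM values per gene were made and deposited by the authors; fastp 0.14.0, HISAT2 2.1.0, StringTie 1.3.3b and GRCh38 are named in the submitters' processing notes, and the annotation release is not given in the sources used here. Gene models were taken from GENCODE 29, which held 34730 of the 34789 genes, and symbols matched 34435.

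All 15283 genes whose mean reached 0.5 FPKM were tested with limma 3.58.1 (R 4.3.3, eBayes with trend) on log2(FPKM + 0.1), in 1 fit of all 9 libraries by group. Tests were two-sided, with Benjamini-Hochberg adjustment over all tested genes and a threshold of 0.05. From FPKM, exon length and depth, 98.2 to 98.3% of low values (50 reads or fewer) came out within 0.05 of a whole read. Reads so recovered for 365 members were used for counting intervals and an alternative voom fit. On simulated siFOXN3-1 data of 14497 genes, only 66, 65 and 62 genes carried log2 changes of 0.5, 1 and 2. Of these, 51.5%, 75.4% and 100% were recovered. Among genes with a mean under 5 FPKM, which 339 members share, the shares were 19.4%, 55.6% and 100%. The dispersion was 0.005, the lowest value allowed. In the real comparison 60.4% of genes were called, which loosens the adjusted threshold, so these rates do not measure the power of the real test. Tables and figures used Python 3.11.15, matplotlib 3.10.9, scipy 1.17.1, numpy 2.4.6 and pandas 2.3.3.

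Named members were, per siRNA against siControl, the 8 largest rises and falls among called members whose groups did not overlap. Between the siRNAs these were 4 each, and the 8 most abundant, FOXN3-AS1, a studied list, their sense partners and 3 genes on each side of the threshold were added. The pairs at IER3, TM4SF1, SLC25A25, PDK1 and POLH, and SP2-AS1, were chosen after their values were seen. The members and lists were chosen with earlier results of these data known. Some genes that the rules name are not reported here.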

Additional observations from a re-analysis of the deposited data

How the results depend on the processing

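Counts of members moved by over 1.5 times under few settings. With a mean of at least 1 FPKM, which leaves 213 members, siFOXN3-1 gave 36 higher and 105 lower and siFOXN3-2 gave 31 and 101. Restricted to the 106 members with no exon base shared with the other strand, the counts were 15 and 46, 13 and 40, and 9 and 8 between the siRNAs. Quantile normalization gave 108 lower with siFOXN3-1 and 93 with siFOXN3-2; the cause was not tested. Between the siRNAs, 21 were higher without both samples labelled siFOXN4 and siFOXN5, which leaves 1 siFOXN3-2 sample assumed to vary like the other groups, and 8 were lower with no filter on low values. Leaving out each library in turn gave 40 to 57 higher and 140 to 171 lower with siFOXN3-1, 46 to 52 and 119 to 155 with siFOXN3-2, and 29 to 41 and 11 to 17 between the siRNAs.

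For the 57 named members, 3115 of 3342 alternative values kept their side of the threshold, 191 lost a call, 32 gained one and 4 reversed. A change of sign counted as a reversal only where the main or the alternative value was called. Changes of sign between values that were not called are among the 3115. The reversals, all with siFOXN3-1, were OIP5-AS1 (0.034 under median-ratio scaling), PXN-AS1 (0.21 under median-ratio scaling, 0.33 under quantile normalization) and ZEB1-AS1 (0.32 under quantile normalization). Same-numbered samples correlated at -0.0763 to 0.0027 in their deviations from group means, and differently numbered samples at -0.0356 to 0.0847. These values show no sign that the numbers pair samples, but cannot exclude it. A fit with the replicate block gave 51 higher and 158 lower, 51 and 142, and 34 and 12. Low read counts limit the precision: 243 members had at least 10 reads in every library.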
